A study of Mus musculus with 4 samples.

Results

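The genes described are the receptors for the macrophage growth factors CSF1 and GM-CSF, the ligand gene Csf1, and the transcription factors that build the alveolar macrophage programme around Pparg. They were chosen by name: Csf1, Csf1r, Csf2ra, Csf2rb, Csf2rb2, Pparg, Bhlhe40, Bhlhe41, Cebpa and Cebpb. All 10 were among the 16755 genes of the deposited table, and all 10 passed the filter on low values. The assay was bulk RNA-seq of flow-sorted mouse alveolar macrophages, which are the phagocytes of the air spaces. The groups were C57BL6 WT mice and C57BL6 OPNKO mice, which lack osteopontin (Spp1-/-), with 2 libraries each. All 4 libraries are tagged bleomycin, a drug that injures the lung and causes fibrosis, and the columns name day 14. A protocol field speaks of no treatment, and no group without bleomycin was analysed here. Which part of Spp1 the allele lacks, and whether a library holds RNA of a single animal or of several, was not stated in the labels used here.

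GM-CSF, made mainly by the lung epithelium, binds a receptor of an alpha chain (Csf2ra) and a beta chain (Csf2rb) that signals through JAK2 and STAT5. In the lung this signal induces Pparg, and mice without GM-CSF, its beta chain or macrophage Pparg lack mature alveolar macrophages and accumulate surfactant. CSF1 binds a different receptor, the tyrosine kinase encoded by Csf1r, which supports survival of macrophages in most tissues. BHLHE40 and BHLHE41 are related repressors that hold back genes of other macrophage types and sustain proliferation of alveolar macrophages, and the C/EBP factors are required for their formation or for myeloid gene expression more widely.

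Reads counted in genes numbered 35793800 to 44759630 per library. The title and the genotype tag named different genotypes for 2 of the 4 samples, and the titles were used. Spp1 followed the titles, at 0.690% of the WT mean in OPNKO. Of 14 markers of alveolar macrophages, all 14 were measured. Limma called 21.4% of them (adjusted p under 0.05), against 4.32% of all tested genes. By limma 1 rose (Krt79) and 2 fell (Ear2, at a log2 fold change of -0.39, and Car4, at -0.68), while Chil3, the most abundant, was at -0.84 (adjusted p = 0.0528). Mrc1, a mannose receptor, ranged from 78127 to 87545 normalised reads and Siglecf, the sialic acid receptor used to sort these cells in many protocols, from 6374 to 8876. A normalised read count is a library's read count divided by the authors' size factor for that library. Permuting 2 and 2 libraries exactly yields no two-sided p below 0.333, so genes were tested with limma, which shares the estimate of spread between all genes. Nothing in the labels says that the replicates of a genotype are separate animals, so the p-values measure the spread between these libraries only.

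The comparison of OPNKO with WT macrophages asked whether loss of osteopontin changed this growth factor and Pparg circuit. The genes for Pparg and Bhlhe41 rose in OPNKO, by 1.33-fold and 1.51-fold of the WT mean, and the ligand gene Csf1 was 1.99-fold of WT without passing the test. None of the 4 receptor chains, nor Bhlhe40, Cebpa or Cebpb, passed. By limma on log2(value + 1), with p-values adjusted over all genes by the Benjamini-Hochberg method and a threshold of 0.05, 2 of the 10 rose and 0 fell, against 4.32% of all 16431 tested genes called (2.33% higher and 1.98% lower). By edgeR 2 of the 10 passed, against 4.96% of all genes it tested. By DESeq2 3 of the 10 passed, against 8.66% of the 13119 genes to which it gave an adjusted p. Both calls were lost when WT replicate 1 or WT replicate 2 was left out, with 0 of 10 called each time, and the all-gene count then fell from 709 to 4 and 11. In the authors' deposited table, which used a Wald test, 3 of the 10 were past the same threshold, Csf1 being the third, against 4.34% of all genes there. For 6 of the 10, the WT and OPNKO libraries did not overlap, 3 above and 3 below WT. Of all tested genes, 52.7% did not overlap, 27.7% above and 25.0% below WT.

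**Figure D1:**
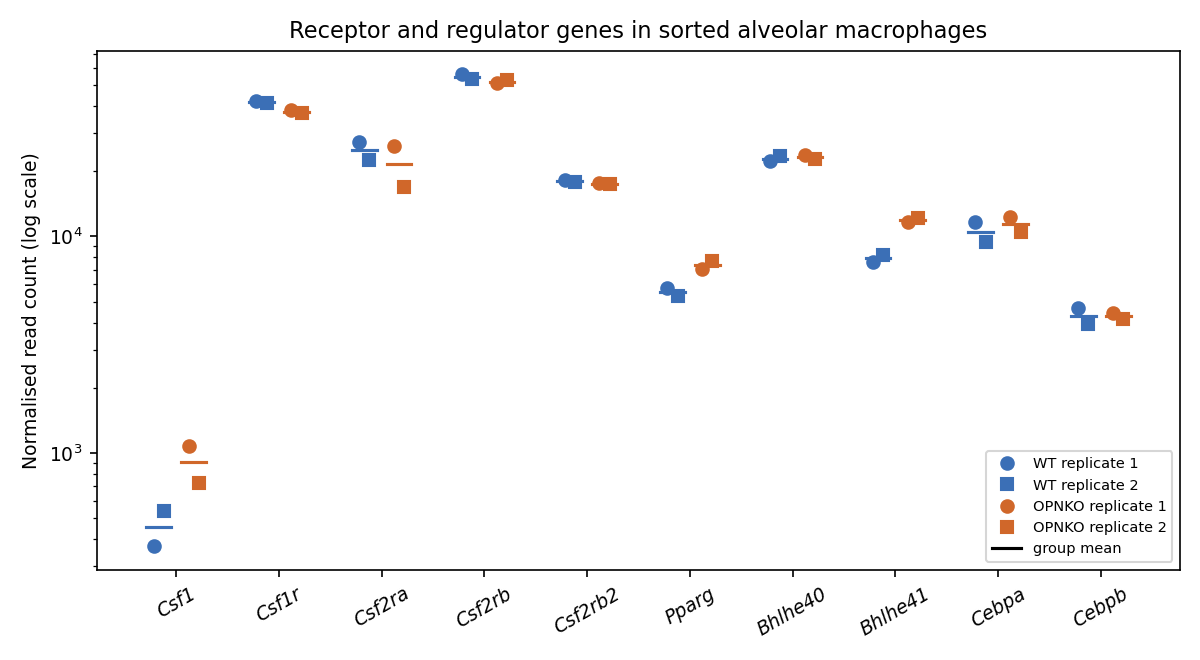
Normalised read count (log axis) of each of the 10 genes in every library, with WT in blue, OPNKO in orange, circles for replicate 1, squares for replicate 2 and a bar at each group mean. Pparg and Bhlhe41 sat higher in both OPNKO libraries, and Csf1 was the lowest gene, with WT values of 371 and 536 and OPNKO values of 1078 and 727.

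Csf1 encodes the macrophage colony-stimulating factor (ENSMUSG00000014599, chromosome 3 from 107741048 to 107760469, minus strand, GRCm38). It had normalised read counts of 371 and 536 in WT and of 1078 and 727 in OPNKO. Both OPNKO libraries were above both WT libraries, but each group was spread widely. Its replicates differed by 0.53 in WT and by 0.57 in OPNKO on the log2 scale in size. That spread was greater than for 95.6% of 11624 well-measured genes in WT and for 95.01% of them in OPNKO. Its mean went from 453 ± 117 to 902 ± 248 (SD, n = 2). This was a log2 fold change of 0.99 ± 0.22 (SE; 95% interval 0.46 to 1.52), with a limma adjusted p of 0.0597. Csf1 missed the threshold by edgeR's quasi-likelihood test as well (adjusted p = 0.0710). It was past it in the authors' deposited table (adjusted p = 0.00532) and by DESeq2 on recovered reads (adjusted p = 8.59e-04). Leaving out OPNKO replicate 2 gave a limma adjusted p of 0.0301 at a log2 fold change of 1.27. Leaving out WT replicate 1, WT replicate 2 or OPNKO replicate 1 gave limma adjusted p of 0.332, 0.228 and 0.169, at log2 fold changes of 0.72, 1.25 and 0.70. The other ligands of the CSF1 and GM-CSF receptors were near the detection limit. Il34, the second CSF1 receptor ligand, had 16 reads over all 4 libraries, and Csf2, which encodes GM-CSF itself, had 27.

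Csf1r, the receptor tyrosine kinase for CSF1 and IL-34 (ENSMUSG00000024621), was among the most abundant of the 10. It had 42419 and 41479 normalised reads in WT and 38331 and 37104 in OPNKO. The WT libraries were both higher, and each pair of replicates lay close together. The mean went from 41949 ± 665 to 37718 ± 868 (SD, n = 2), which is 89.9% of WT. A log2 fold change of -0.15 ± 0.07 (SE; 95% interval -0.32 to 0.01) did not pass (limma adjusted p = 0.276). It was 0.383 when adjusted in the authors' deposited table. Of its exon bases, 15.1% are shared with exons of Hmgxb3 on the opposite strand, and reads from the pair can be told apart there only if counting used strand, which is not stated.

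Csf2ra encodes the ligand-specific alpha chain of the GM-CSF receptor (ENSMUSG00000059326, chromosome 19 from 61223957 to 61228429, minus strand, GRCm38). Its normalised read counts were 27467 and 22499 in WT and 26200.3 and 16966 in OPNKO. Both groups overlapped, and replicate 1 was the higher library in both genotypes. The OPNKO libraries differed 1.54-fold, a greater log2 difference than for 96.0% of well-measured genes. The log2 fold change of -0.24 ± 0.19 (SE; 95% interval -0.69 to 0.22) did not pass (limma adjusted p = 0.531), and it came to 0.08 once OPNKO replicate 2 was dropped. In the authors' deposited table its standard error of 0.34 was the greatest of the 10 genes.

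Csf2rb, the common beta chain that signals for GM-CSF, IL-3 and IL-5, had the highest normalised read count of the 10 in every library (ENSMUSG00000071713, chromosome 15 from 78325752 to 78353847, plus strand, GRCm38). It had 56156 and 53209 reads in WT and 50975 and 53083 in OPNKO. WT replicate 2 and OPNKO replicate 2 were nearly equal, and the other libraries lay to either side. The log2 fold change was -0.07 ± 0.08 (SE; 95% interval -0.26 to 0.11; limma adjusted p = 0.655). The interval corresponds to 0.837-fold to 1.08-fold of WT. Csf2rb2, a beta chain specific for IL-3 that mice carry beside it (ENSMUSG00000071714, chromosome 15 from 78282507 to 78305721, minus strand, GRCm38), had 18239 and 17779.6 reads in WT and 17662 and 17403 in OPNKO. Its replicates were the most alike of the 10 genes within OPNKO, at 1.01-fold. It had a log2 fold change of -0.04 ± 0.06 (SE; 95% interval -0.18 to 0.11; limma adjusted p = 0.770).

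These beta chains are close copies, which bears on how far their read counts are separate measurements. Their coding sequences in GENCODE M21 (2691 and 2637 bases) were 95.2% identical over 2631 aligned bases, and the longest identical stretch was 242 bases. Of all 50-base words in the longest Csf2rb transcript, 18.4% also occur in Csf2rb2, and 6.96% of 100-base words do. Reads from such stretches can be dropped or assigned to either gene, so both values carry that uncertainty. The recovered counts were whole reads, so no fractions of reads were counted. The 90 coding bases with the most differences within a single exon are shown, since reads there separate the genes. The Csf2rb stretch lies in exon 5 at chr15:78338897-78338986, plus strand, and the Csf2rb2 stretch in exon 4 at chr15:78294345-78294434, minus strand, both in GRCm38. Capitals mark the 16 bases that differ.
Csf2rb: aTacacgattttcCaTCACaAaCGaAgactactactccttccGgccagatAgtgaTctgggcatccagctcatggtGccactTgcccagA
Csf2rb2: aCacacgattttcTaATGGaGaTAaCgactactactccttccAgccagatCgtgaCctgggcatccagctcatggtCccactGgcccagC

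**Figure D2:**
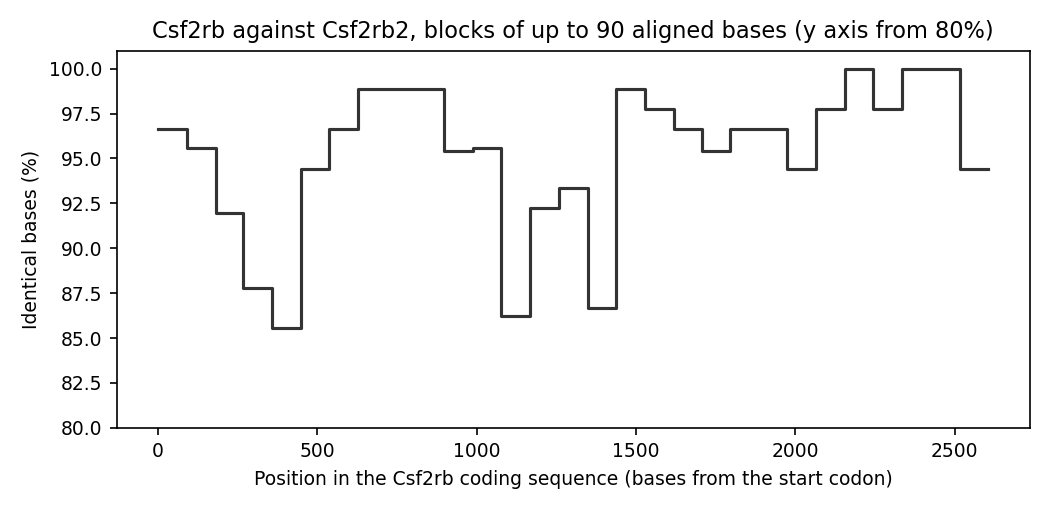
Share of identical bases (y axis, from 80%) between the Csf2rb and Csf2rb2 coding sequences in blocks of up to 90 aligned bases, by position in Csf2rb (x axis, bases from the start codon). Identity ranged from 85.6% to 100% over 29 blocks, and the blocks at 100% lie towards the end of the coding sequence.

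Pparg encodes the nuclear receptor PPAR gamma, which GM-CSF signalling induces in fetal lung monocytes as they become alveolar macrophages (ENSMUSG00000000440, chromosome 6 from 115360951 to 115490399, plus strand, GRCm38). It had 5799.6 and 5293 normalised reads in WT and 7091 and 7689 in OPNKO. Both OPNKO libraries were above both WT libraries, and the gap between the groups was wider than the gap within either. The mean rose from 5547 ± 358 to 7389.95 ± 423 (SD, n = 2). Its log2 fold change was 0.41 ± 0.07 (SE; 95% interval 0.24 to 0.59; limma adjusted p = 0.0283), and the authors' deposited table gives an adjusted p of 9.72e-04. The rise ended as a call without WT replicate 1 (adjusted p = 0.175), WT replicate 2 (0.286) or OPNKO replicate 2 (0.0992), with limma log2 fold changes of 0.48, 0.35 and 0.36. In bulk RNA, a change in the share of cells that carry a transcript and a change in its amount per cell cannot be told apart.

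Bhlhe41 had the smallest p of the 10 genes. It encodes a basic helix-loop-helix repressor also known as DEC2 (ENSMUSG00000030256, chromosome 6 from 145858243 to 145865558, minus strand, GRCm38). Its normalised read counts were 7640.3 and 8189 in WT and 11655 and 12207 in OPNKO. These groups were far apart compared with their spread, with replicates within 1.07-fold in WT and 1.05-fold in OPNKO. The mean rose from 7915 ± 388 to 11931 ± 390.4 (SD, n = 2). Its log2 fold change was 0.59 ± 0.07 (SE; 95% interval 0.44 to 0.75; limma adjusted p = 0.00631), and the adjusted p in the authors' deposited table was 7.08e-09. The call was lost without WT replicate 1 (limma adjusted p = 0.155) or WT replicate 2 (0.109). A transcript named Gm43909 lies on the opposite strand and shares 19.05% of the Bhlhe41 exon bases, so part of the count is uncertain without knowledge of the strand setting.

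Bhlhe40, the paralogue also known as DEC1 (ENSMUSG00000030103, chromosome 6 from 108660629 to 108666925, plus strand, GRCm38), did not pass the test. It had 22296 and 23551 normalised reads in WT and 23765 and 22831 in OPNKO. The groups overlapped in part, with the lowest library in WT and the highest in OPNKO. The log2 fold change was 0.02 ± 0.07 (SE; 95% interval -0.14 to 0.18; limma adjusted p = 0.881). The interval corresponds to 0.909-fold to 1.14-fold of WT, which lies below the 1.51-fold of Bhlhe41.

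**Figure D3:**
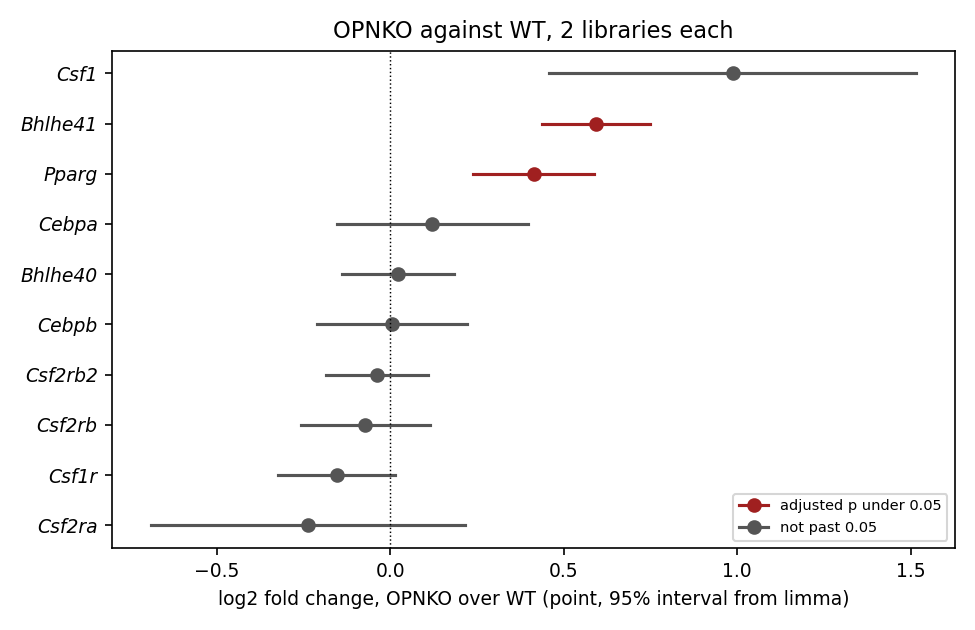
Log2 fold change of OPNKO over WT (x axis, limma on log2(value + 1)) for each of the 10 genes, with its 95% interval; red marks an adjusted p under 0.05. Bhlhe41 (0.59) and Pparg (0.41) are the genes in red, Csf1 (0.99) lies furthest to the right with a wide interval, and the intervals of the other 7 genes include 0.

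Cebpa encodes C/EBP alpha, a bZIP factor required for alveolar macrophages to form (ENSMUSG00000034957, chromosome 7 from 35119293 to 35121928, plus strand, GRCm38). It had 11627 and 9394 normalised reads in WT and 12306 and 10504 in OPNKO. The groups overlapped, and replicate 1 was higher in both. Cebpa had a log2 fold change of 0.12 ± 0.12 (SE; 95% interval -0.15 to 0.40; limma adjusted p = 0.602). Cebpb encodes C/EBP beta, a factor of inflammatory and monocytic gene expression (ENSMUSG00000056501, chromosome 2 from 167688915 to 167690418, plus strand, GRCm38). It had 4655 and 3918 reads in WT and 4437 and 4146 in OPNKO, with the OPNKO libraries inside the range of the WT libraries. The means were 4287 ± 521 and 4292 ± 206 (SD, n = 2), and the log2 fold change was 0.0061 ± 0.09 (SE; 95% interval -0.21 to 0.22; limma adjusted p = 0.978). Exons of Tmem189 on the opposite strand share 20.7% of its exon bases.

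Ratios between members within a library do not depend on how libraries were scaled to each other. They are not divided by gene length, so they serve to compare libraries and not genes. The ratio of Bhlhe40 to Bhlhe41 was 2.92 and 2.88 in WT and 2.04 and 1.87 in OPNKO. It was lower in both OPNKO libraries, by a difference of -0.57 in mean log2 ratio (exact two-sided permutation p = 0.333, the smallest that 2 against 2 can give). The ratio of Csf2rb to Csf1r was 1.32 and 1.28 in WT and 1.33 and 1.43 in OPNKO, a difference of 0.08 in mean log2 ratio (exact permutation p = 0.333). The ratio of Cebpa to Cebpb was 2.497 and 2.398 in WT and 2.77 and 2.53 in OPNKO (exact permutation p = 0.333). The ratio of Csf2rb to Csf2rb2 was 3.08 and 2.99 in WT and 2.89 and 3.05 in OPNKO, with overlapping groups (exact permutation p = 0.667). Adjusted over the 4 ratios by the Benjamini-Hochberg method, p was 0.444 for the first 3 and 0.667 for the last. Since this test cannot pass a threshold of 0.05 with 2 libraries against 2, these p-values do not show whether a ratio differed.

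**Figure D4:**
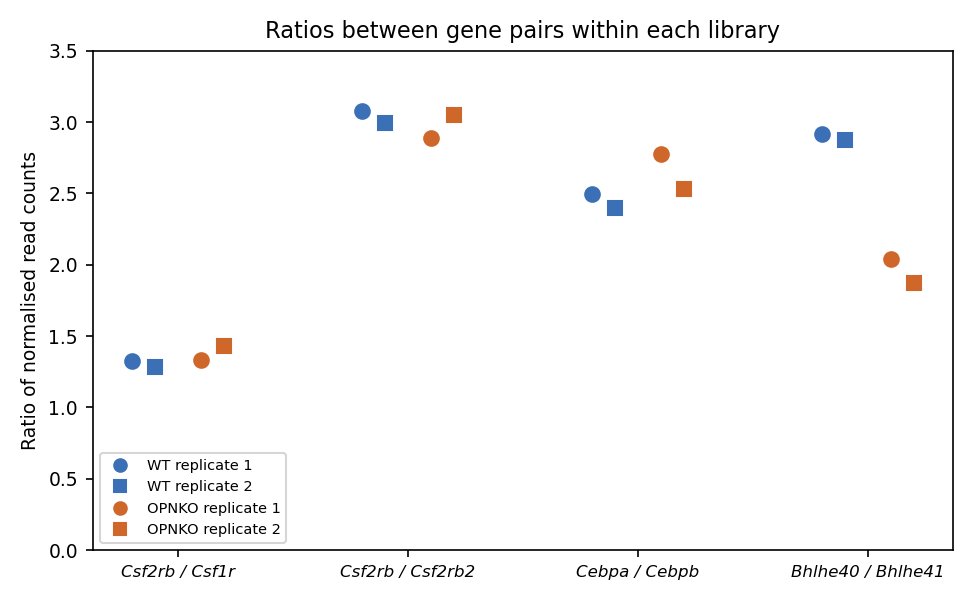
Ratio of normalised read counts (y axis, from 0) between 4 pairs of genes within each library, with WT in blue, OPNKO in orange, circles for replicate 1 and squares for replicate 2. The Bhlhe40 to Bhlhe41 ratio was 2.92 and 2.88 in WT and 2.04 and 1.87 in OPNKO, while the Csf2rb to Csf2rb2 ratio lay between 2.89 and 3.08 in all libraries.

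To order the members by level, the mean normalised read count over the 4 libraries was divided by the kilobases of annotated exon. Csf2ra (8109.7 per kb), Csf2rb (7332) and Csf1r (6899) led, and neighbours among these receptor chains overlapped in their range over libraries. Bhlhe40 followed at 4912 per kb, clear of Csf1r, and then Cebpa (4157) and Csf2rb2 (3749), which overlapped each other. Cebpb stood at 2852 per kb, Pparg at 2190.4 and Bhlhe41 at 1477, and the ranges of Pparg and Bhlhe41 overlapped across the pooled genotypes, though Pparg was the higher of the pair within every library. Csf1 was last at 128 per kb, below every other member in every library. The 9 genes other than Csf1 lay above the 91.7 percentile of tested genes on this scale or at it, and Csf1 at the 49.8 percentile. Exon length here is the union over annotated transcripts, so a gene with long unused exons is placed too low.

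Promoters are shown for Pparg and Bhlhe41, which were called higher in OPNKO, and for Csf1, which did not pass by limma. The motifs are those of the factors described and of general promoter and inflammatory factors. RefSeq windows on GRCm38.p6, from 250 bases before to 50 bases after an annotated start, were found for 7 of the 10 genes; Csf1r, Csf2rb and Bhlhe40 had none in the table used. Each window was searched on both strands for CACGTG (the E-box that BHLHE40 and BHLHE41 bind), AGGTCA (the core element of PPAR sites), the DR1 element (that core repeated after a spacer base, as PPAR and RXR bind it together, which overlaps the core motif), TTGCGCAA (C/EBP), TGANTCA (AP-1), GAGGAAGT (PU.1), the NF-kB site and GGGGCGGGG (the GC box). Capitals mark every match of the first 6 motifs and not those of the NF-kB site or the GC box. Bhlhe41 is at chr6:145865371-145865670, minus strand, Csf1 at chr3:107760420-107760719, minus strand, and Pparg, which has 3 annotated windows, is shown for those at chr6:115360894-115361193 and chr6:115362099-115362398, plus strand.
Bhlhe41: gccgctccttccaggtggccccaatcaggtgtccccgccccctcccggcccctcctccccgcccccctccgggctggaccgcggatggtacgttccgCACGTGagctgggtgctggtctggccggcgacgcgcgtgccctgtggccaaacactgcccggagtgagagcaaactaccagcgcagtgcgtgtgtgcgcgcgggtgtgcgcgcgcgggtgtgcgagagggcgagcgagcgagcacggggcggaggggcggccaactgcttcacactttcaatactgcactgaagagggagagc
Csf1: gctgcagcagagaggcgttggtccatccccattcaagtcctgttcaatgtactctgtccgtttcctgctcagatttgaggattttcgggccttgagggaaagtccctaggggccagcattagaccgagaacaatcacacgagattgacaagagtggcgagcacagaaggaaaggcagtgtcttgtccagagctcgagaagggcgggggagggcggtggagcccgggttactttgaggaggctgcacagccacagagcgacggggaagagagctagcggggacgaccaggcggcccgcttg
Pparg window 1: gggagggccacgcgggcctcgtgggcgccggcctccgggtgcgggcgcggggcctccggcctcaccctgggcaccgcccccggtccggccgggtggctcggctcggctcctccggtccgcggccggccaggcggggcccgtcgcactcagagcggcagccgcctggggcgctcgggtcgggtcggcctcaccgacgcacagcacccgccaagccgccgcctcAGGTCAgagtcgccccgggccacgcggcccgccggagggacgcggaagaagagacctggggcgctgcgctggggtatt
Pparg window 2: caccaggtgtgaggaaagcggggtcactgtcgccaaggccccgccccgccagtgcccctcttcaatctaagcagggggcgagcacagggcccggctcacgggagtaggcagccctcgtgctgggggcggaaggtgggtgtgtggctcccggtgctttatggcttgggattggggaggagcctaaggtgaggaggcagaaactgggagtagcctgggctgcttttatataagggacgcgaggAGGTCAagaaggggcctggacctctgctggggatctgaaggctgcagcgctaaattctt

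The Bhlhe41 window holds 1 E-box, which begins 153 bases before the start (at -153), and 7.15% of all 32851 windows of this length hold that motif. Both Pparg windows shown hold 1 core element (at -28 and at -9), a motif in 16.3% of all windows, and the DR1 element was in none of the member windows and in 0.0396% of all. The Csf1 window, the remaining Pparg window and those of Csf2ra, Cebpa and Cebpb held none of the first 6 motifs. Of the other motifs, the Csf1 window held 1 NF-kB site (at -154; in 5.56% of all windows), and GC boxes (in 11.4% of all windows) numbered 2 in the Bhlhe41 window, 1 in Pparg window 2 and 1 in the Csf2ra window. The Csf2rb2 window held 1 PU.1 motif, which 3.20% of all windows hold. A match is a run of letters and not a measured binding site.

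Genes known as PPAR targets had more calls than any other pathway list here, on the longest of these lists. This list was chosen with earlier results of these data known, so its share of calls is a description and not a test. Of 29 lipid genes tested, 6 rose and 1 fell (24.1% called, against 4.32% of all tested genes), and 23 had a positive log2 fold change. The list's median log2 fold change was 0.11, beside -0.00056 for all tested genes. With WT replicate 1 or WT replicate 2 left out, 0 of the 29 passed. Without OPNKO replicate 1, 5 rose, and without OPNKO replicate 2, 3, with 0 falls in either, so that the call of Klf9 was lost. Cidec, a lipid droplet protein gene, had 913 and 637 normalised reads in WT and 2514 and 3009 in OPNKO (log2 fold change 1.85, limma adjusted p = 0.00306). Fabp1, a fatty acid carrier, had 122 and 114 in WT and 498 and 408 in OPNKO (1.93, limma adjusted p = 0.00254). In both genes every OPNKO library was more than 2-fold above every WT library.

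Pdk4 encodes a kinase that limits the use of glucose carbon when fat is burned. It had 169 and 113 normalised reads in WT and 276 and 326 in OPNKO (log2 fold change 1.11, limma adjusted p = 0.0417). Angptl4, a secreted inhibitor of lipoprotein lipase, rose from 1559.8 ± 191 to 2393 ± 124 (SD, n = 2; limma adjusted p = 0.0185). The cholesterol exporter gene Abcg1 rose from 46224 ± 1059 to 69123 ± 4114 (SD, n = 2; limma adjusted p = 0.0143) and the desaturase gene Scd1 from 3133 ± 76.1 to 3993 ± 245 (SD, n = 2; limma adjusted p = 0.0403). Klf9, which encodes a Krüppel-like factor, fell by 0.64 on the log2 scale (limma adjusted p = 0.0252). Other textbook targets did not pass. The log2 fold change was -0.02 for Fabp4 (limma adjusted p = 0.930), 0.07 for Cd36 (0.825), 0.11 for Plin2 (0.467) and 0.08 for Lpl (0.726). Fabp4, Cd36, Plin2 and Lpl were chosen after their values were seen.

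**Figure D5:**
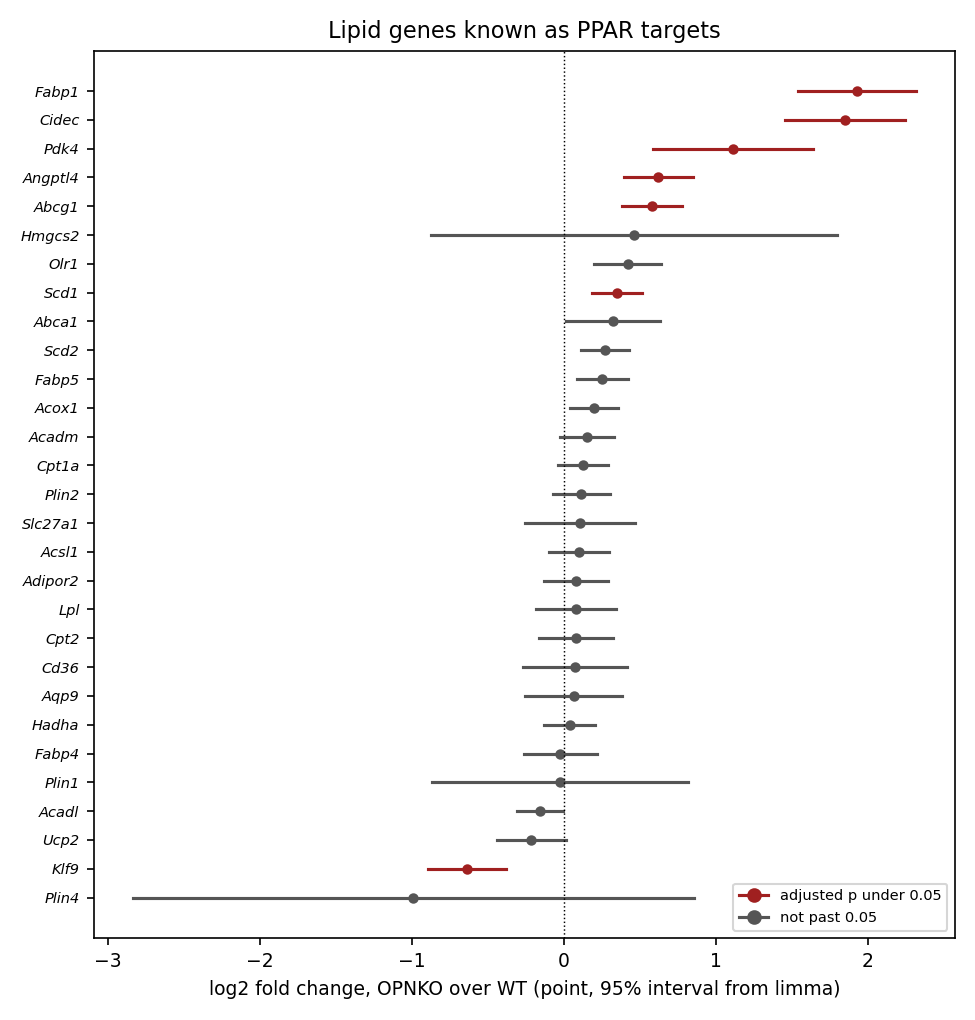
Log2 fold change of OPNKO over WT (x axis, limma) with 95% interval for the 29 tested lipid genes known as PPAR targets; red marks an adjusted p under 0.05. The 6 rises run from Scd1 (0.35) to Fabp1 (1.93), Klf9 (-0.64) is the fall, and most other intervals include 0.

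The partners of PPAR gamma were measured in the same way. Of 17 partners and coregulators, 0 passed by limma, while 8 had an unadjusted p under 0.05 (21.2% of all tested genes had), and 0 passed by edgeR and by DESeq2. The smallest p-values were those of the coactivator gene Ppargc1b (log2 fold change -0.35), the corepressor gene Ncor1 (0.19) and the acetyltransferase gene Ep300 (0.19), with limma adjusted p of 0.117, 0.125 and 0.129. The heterodimer partner Rxra, chosen after its value was seen, had a log2 fold change of 0.06. Of 20 GM-CSF receptor signalling genes, 0 passed by limma (3 at an unadjusted p under 0.05; 0 by edgeR and 0 by DESeq2), and the median was -0.0011. The transcription factor gene Stat5b had 3402 and 3324 normalised reads in WT and 3789 and 4002 in OPNKO (log2 fold change 0.21, limma adjusted p = 0.117). Its paralogue Stat5a was at 0.21 on the log2 fold change scale (limma, adjusted p = 0.208) and the feedback inhibitor gene Socs3 at -0.27 (0.197). Cish, a STAT5 target, named after its value was seen, had -0.02 (limma adjusted p = 0.940).

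Of 21 genes around the CSF1 receptor, 1 fell and 0 rose, and the median was -0.0020. The share called, 4.76%, was close to the 4.32% of all tested genes. The gene that fell was Dok2, an adaptor that restrains tyrosine kinase signalling in myeloid cells. It had 8087 and 7667 normalised reads in WT and 4968 and 4927 in OPNKO (log2 fold change -0.67, limma adjusted p = 0.00315). Both OPNKO libraries lay well below both WT libraries. Adam17, which encodes the sheddase that cuts the CSF1 receptor from the cell surface, was at 0.25 on the log2 fold change scale (limma, adjusted p = 0.0782) and the exchange factor gene Sos1 at 0.28 (0.0862). DESeq2 called 2 higher and 2 lower of the 21, where it called 8.66% of the genes to which it gave an adjusted p. The fit with the replicate number as a block called 2 higher and 1 lower. Of 9 tested genes of the 2 receptor families beyond the members, 0 passed by limma, edgeR or DESeq2. At an unadjusted limma p under 0.05 there was 1, where 21.2% of all tested genes had such a p. The G-CSF receptor gene Csf3r stood at 0.37 on the log2 fold change scale (limma adjusted p = 0.190), the IL-3 receptor alpha chain gene Il3ra at -0.54 (0.367), and Flt3, a receptor of dendritic cell precursors, at -0.38 (0.431).

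Among 14 further C/EBP and bZIP genes, 1 rose and 0 fell (7.14% called, against 4.32% of all tested genes). This was Trib1, whose protein directs C/EBP alpha to degradation. It had 7082 and 7071 normalised reads in WT and 9934 and 9489.9 in OPNKO (log2 fold change 0.46, limma adjusted p = 0.0108). The call was lost when either WT library was left out. Cebpg was at 0.25 on the log2 fold change scale (limma, adjusted p = 0.0863) and Batf at 0.36 (0.106). Of 20 further helix-loop-helix and E-box genes, 0 passed by limma, edgeR or DESeq2. At an unadjusted limma p under 0.05 there were 7, where 21.2% of all tested genes had such a p. The smallest p-values were those of the Notch target Hes1 (-0.69), the clock gene Arntl (0.38) and Usf1 (0.27), with limma adjusted p of 0.0708, 0.0713 and 0.105.

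Of 22 lineage factors of macrophages, 1 fell and 0 rose (4.55% called, against 4.32% of all tested genes). The direction depended on the setting. Without OPNKO replicate 2, 2 rose and 0 fell, so that the call of Irf4 was lost, and 2 rose and 2 fell both by DESeq2 and with the replicate number as a block. Irf4, a factor of alternative activation and of some dendritic cells, had 958 and 1096 normalised reads in WT and 666 and 579 in OPNKO (log2 fold change -0.72, limma adjusted p = 0.0183). Spic, a factor of iron-recycling macrophages, had a log2 fold change of -2.27 on 103 reads over all libraries (limma adjusted p = 0.0540), and Egr2, a factor that alveolar macrophages depend on, of 0.50 (0.0907). Of 15 self-renewal genes, 1 rose and 0 fell (6.67% called, against 4.32% of all tested genes). Ccnd2, the cyclin gene of early G1 phase, had 3262 and 2963 reads in WT and 4619.8 and 4696 in OPNKO (log2 fold change 0.58, limma adjusted p = 0.00734). Its relative Ccnd1 was at -0.72 on the log2 fold change scale (limma, adjusted p = 0.0647) and the quiescence factor gene Klf2 at -0.41 (0.119). With WT replicate 1 or WT replicate 2 left out, 0 genes of either list passed.

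The genes whose profile over the 4 libraries was nearest to that of Pparg were Zfp933, Rsf1 and Amz1, with Euclidean distances of 0.022, 0.030 and 0.037 between centred log2 profiles. The median distance over 11623 genes was 0.46, and 100 genes lay within 0.1 of Pparg. For Csf1r the nearest were Ndufa7, Efhd2 and BC004004, at 0.010, 0.013 and 0.015, and 853 genes lay within 0.1. With 4 libraries, such nearness is a description only.

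Markers of other cells differed between the libraries in which these genes differed. Over all tested genes, limma called 4.32% (2.33% higher and 1.98% lower), and 21.2% had an unadjusted p under 0.05. Of 12 monocyte markers, 4 fell and 0 rose. Those that fell were Ccr2 (log2 fold change -1.14), Adgre4 (-1.23), Ace (-0.77) and Vcan (-1.30). The 12 together held 1.05% and 1.06% of all values in WT and 1.06% and 0.936% in OPNKO, of which Fn1 made up 84.8% to 88.4%. Without Fn1 the other 11 stood at 0.160% and 0.161% in WT and 0.125% and 0.108% in OPNKO. Among T and NK cell markers 6 of 14 were higher and 0 lower in OPNKO, with a summed 0.00576% and 0.00736% in WT and 0.0134% and 0.0226% in OPNKO. Of 12 dendritic cell markers, 2 fell, with 0.00599% and 0.00805% in WT and 0.00338% and 0.00352% in OPNKO. Of 12 B and plasma cell markers, 4 fell, with 0.0974% and 0.124% in WT and 0.0443% and 0.0449% in OPNKO. Xbp1 made up 23.2% to 29.0% of that sum in WT and 60.9% to 63.3% in OPNKO. Without Xbp1 the other 11 stood at 0.0692% and 0.0949% in WT and 0.0173% and 0.0165% in OPNKO. Of 11 interstitial macrophage markers, 1 fell by limma (Mgl2), while 1 passed by edgeR and 4 by DESeq2. All 11 had a negative log2 fold change (median -0.41), 5 of them at an unadjusted p under 0.05. Their sum was 0.486% and 0.557% in WT and 0.614% and 0.367% in OPNKO. Apoe alone made up 73.9% to 79.9% of that sum. Without Apoe the other 10 stood at 0.125% and 0.145% in WT and 0.124% and 0.0829% in OPNKO. Fibroblast markers, of which 0 of 12 passed by limma, edgeR or DESeq2 (4 at an unadjusted p under 0.05), stood at 0.0177% in WT replicate 2 and at 0.00235% to 0.00408% in the other libraries. The 14 alveolar macrophage markers together held 2.47% and 2.51% of all values in the WT libraries and 1.73% and 2.05% in OPNKO. Without Chil3, which alone made up 39.4% to 58.8% of that sum, the other 13 stood at 1.06% and 1.03% in WT and 1.05% and 1.13% in OPNKO. Of 9 neutrophil markers 1 rose and 1 fell. Of 12 endothelial markers 1 rose, but 11 had a negative log2 fold change (median -0.80). Vwf made up 65.6% to 89.4% of the endothelial sum. Without Vwf the other 11 stood at 0.00152% and 0.00585% in WT and 0.00186% and 0.00158% in OPNKO. By limma 0 of 12 epithelial markers passed (1 by DESeq2, 0 by edgeR, 1 unadjusted). For erythroid markers it was 0 of 7 (0 by DESeq2 and edgeR, 1 unadjusted). None of the listed markers present in the table was at 0 in all 4 libraries. The part of these cells in the levels of Csf1, Pparg and Bhlhe41 was not tested.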

How the data were processed

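Bulk RNA-seq of 4 libraries was analysed. The labels describe a pool of 10 stranded mRNA libraries on a single lane, 4 of which are used. STAR 2.4.1d, HTSeq 0.6.1p1, Trim Galore 0.4.0 and edgeR appear, with no role, per the submitters' processing notes. Build, annotation and strand setting are not given by the sources used here. The deposited table of the authors holds a normalized signal per library with, per the file headers, a log2 fold change, its standard error as a log2 value, a raw and an adjusted p-value and the Wald score. Whole reads were recovered for 100% of the deposited signal values within 0.001 reads. A further 2 columns matched no sample's labels and stayed unused. The planned test for normalized values was limma 3.58.1 (R 4.3.3, trend) on log2(value + 1), OPNKO minus WT, for genes of mean value at least 1, with Benjamini-Hochberg adjustment. The pseudocount understates the change of low genes. Alternatives were other scalings, pseudocounts, filters, a replicate block, each library left out, edgeR 4.0.16 (694 genes called) and DESeq2 1.42.0 (1136) on recovered reads. The limma, edgeR and DESeq2 steps were tested on simulated data. Gene symbols and positions are from GENCODE M21 (GRCm38), matched by Ensembl identifier for 16542 genes and not for 213. The deposited symbol was kept for those. Coding sequences were aligned with Biopython 1.88.

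The genes and the lists were chosen with earlier results of these data known. Named genes are the 10 members, Spp1, every gene past the threshold in the pathway lists (or those of smallest p, up to 3, where fewer passed), and the 3 nearest profiles of Pparg and of Csf1r; other genes are said to be chosen after their values were seen, as were Il34, Csf2 and the cell type markers named. Other markers are given by counts and sums only.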

Additional observations from a re-analysis of the deposited data

How the results depend on the processing

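Pparg and Bhlhe41 stayed called and higher in OPNKO under all 10 alternatives that kept the 4 libraries. Csf1 passed with the replicate block (log2 fold change 0.99) and by DESeq2 (0.98). Cebpb, whose change was near 0, turned lower with median-of-ratios scaling (-0.0023), total reads (-0.014), edgeR (-0.011) and DESeq2 (-0.0063). Genes called in all were 1566 with the replicate block and 1136 by DESeq2, against 709. Lists moved as follows. With the replicate block the calls were 1 in GM-CSF signalling, 3 in CSF1 receptor signalling, 1 among PPARG partners, 2 among C/EBP genes, 2 among E-box genes, 4 among lineage factors and 2 among self-renewal genes. By DESeq2 they were 4 in CSF1 receptor signalling, 11 among PPARG targets, 4 among lineage factors and 2 among self-renewal genes. Lineage factors had 2 with total reads and 2 with a pseudocount of 5. The cause was not tested.

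With a library left out, its group has 1 sample, assumed to vary like the other group. All-gene calls then ranged from 4 to 545 and member calls from 0 to 2. List calls ranged from 0 to 1 (receptor families; C/EBP genes), 0 to 3 (CSF1 receptor signalling; lineage factors; self-renewal genes) and 0 to 5 (PPARG targets), and were 0 throughout for GM-CSF signalling, PPARG partners and E-box genes. Log2 fold changes ranged from 0.70 to 1.27 for Csf1, -0.18 to -0.13 for Csf1r, -0.55 to 0.076 for Csf2ra, -0.11 to -0.033 for Csf2rb, -0.057 to -0.020 for Csf2rb2, 0.35 to 0.48 for Pparg, -0.016 to 0.063 for Bhlhe40, 0.54 to 0.64 for Bhlhe41, -0.032 to 0.28 for Cebpa and -0.12 to 0.13 for Cebpb. Differences of log2 ratios ranged from 0.029 to 0.13 for Csf2rb to Csf1r, -0.073 to 0.0070 for Csf2rb to Csf2rb2, 0.050 to 0.18 for Cebpa to Cebpb and -0.63 to -0.51 for Bhlhe40 to Bhlhe41.

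Over 11624 genes as a set, same-numbered libraries did not deviate together (correlation of deviations -0.031). That value is pooled over genes and does not speak for each gene. Whether the replicate number marks a pairing that affected some genes was not tested. Csf1 had the fewest reads among the members, with 338 to 944 per library. The source of its wide spread between replicates was not tested. Depth leaves Il34 and Csf2 unreadable.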
